A study of Mus musculus with 14 samples.

Results

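Transcripts of 10 genes of the NF-kB pathway were followed through RNA-seq libraries of isolated mouse colon epithelium. They were the rows of the count table whose gene identifiers map to Nfkb1, Nfkb2, Relb, Nfkbia, Nfkbiz, Tnfaip2, Tnfaip3, Birc3, Icam1 and Il18, which is 10 of 37680 genes in the table. All 10 were among the 15127 genes that had at least 10 counts in at least 3 libraries and were therefore tested. The members were listed by name.

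The 14 libraries were made from poly(A) RNA of colon epithelium that had been stripped off with EDTA, and they fell into 4 groups. WT mice on water gave 4 libraries, mice labelled Smad4 KO on water gave 4, WT mice given 2.5% DSS for 3 d gave 3, and Smad4 KO mice given the same DSS gave 3. Dextran sulfate sodium (DSS, 40 kD) is a sulfated glucose polymer that, taken up with the drinking water, damages the lining of the colon. The study used it to ask how an epithelium without Smad4, the shared mediator of TGF-β and BMP signaling, responds to early injury. In the Smad4 KO mice a tamoxifen-inducible Cre recombinase under the Villin promoter, which is active in the intestinal epithelium, recombines floxed Smad4 alleles, so stromal and immune cells keep the gene. The mice were 8 to 14 wk old and gender- and age-matched, on a background enriched for C57/BL6. The treatment scheme shows tamoxifen (0.05 g/kg on 4 d) for the Smad4 KO mice and none for WT, so that the genotype and tamoxifen cannot be told apart. Nothing in the labels says whether each library is a separate mouse, and the p-values measure the spread between these libraries.

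NF-kB is a family of dimeric transcription factors that rest in the cytoplasm, bound by inhibitor of kB (IkB) proteins. Signals from receptors for TNF, IL-1 and microbial products activate the IkB kinases, the inhibitor is degraded, and the freed dimer enters the nucleus. Many of the genes it then switches on encode its own subunits and inhibitors, which makes the pathway one of the best known negative feedback loops. A slower, noncanonical branch processes the Nfkb2 product and acts mainly through RelB. In the intestinal epithelium the pathway is known both for restraining cell death and for driving inflammatory gene expression during colitis.

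The members fall into 3 roles. Nfkb1 (p105/p50; ENSMUSG00000028163, chr3:135247619-135354511, minus strand), Nfkb2 (p100/p52; ENSMUSG00000025225, chr19:46379227-46386580, plus strand) and Relb (ENSMUSG00000002983, chr7:20191566-20214787, minus strand) encode subunits. Nfkbia (IkBα; ENSMUSG00000021025, chr12:56590398-56593634, minus strand), Nfkbiz (IkBζ, a nuclear regulator; ENSMUSG00000035356, chr16:55811488-55839012, minus strand), Tnfaip3 (A20, a ubiquitin-editing enzyme; ENSMUSG00000019850, chr10:18720716-18735463, minus strand) and Birc3 (cIAP2, a ubiquitin ligase; ENSMUSG00000032000, chr9:7848699-7873186, minus strand) encode regulators of the pathway. Icam1 (a leukocyte adhesion molecule; ENSMUSG00000037405, chr9:20820404-20833241, plus strand), Tnfaip2 (a TNF-inducible protein; ENSMUSG00000021281, chr12:112680680-112693229, plus strand) and Il18 (a cytokine stored as a precursor in epithelial cells; ENSMUSG00000039217, chr9:50383378-50389942, plus strand) are the target and effector genes. All are protein-coding, and the positions are those of the whole gene in mm9, the build to which the reads were aligned. Reads were counted over the exons of each gene.

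The sequences below show matches to a loose form of the kB motif, which NF-kB dimers bind, before the starts of 4 of the members. Promoters of 300 bases (250 before and 50 after a RefSeq start) on GRCm38.p6, a later build than that of the counts, were matched for 7 of the 10 members, Nfkb2, Nfkbia, Tnfaip2, Tnfaip3, Birc3, Icam1 and Il18. They were searched on both strands for GGNNNTTCC, which on the other strand reads GGAANNNCC, and matches at the same place were counted once. The motif was found in 8 of the members' 10 promoters, since Nfkb2 has 3 starts and Tnfaip3 has 2, and in 18.5% of all 32851 promoters of that length. Counted by gene, 5 of the 7 members held it at 1 or more starts, against 20.7% of 27025 genes. Birc3 and Il18 had no match in this window. The stretches shown are those upstream of the start for Icam1, which had the largest DSS difference, for both Nfkbia and Tnfaip3 (its first start), the best known feedback inhibitors, and for the first Nfkb2 start. Each is read 5′ to 3′ along the gene, with the motif in capitals.
Icam1, chr9:21015757-21015894, plus strand: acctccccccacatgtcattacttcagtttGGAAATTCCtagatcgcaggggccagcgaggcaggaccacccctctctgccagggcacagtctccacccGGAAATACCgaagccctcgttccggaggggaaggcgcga
Nfkbia, chr12:55492648-55492888, minus strand: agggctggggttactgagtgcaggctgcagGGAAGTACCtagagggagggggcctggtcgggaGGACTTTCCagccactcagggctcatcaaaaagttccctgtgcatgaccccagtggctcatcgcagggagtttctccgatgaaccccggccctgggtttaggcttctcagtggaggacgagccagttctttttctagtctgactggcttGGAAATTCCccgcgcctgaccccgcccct
Tnfaip3, chr10:19015411-19015464, minus strand: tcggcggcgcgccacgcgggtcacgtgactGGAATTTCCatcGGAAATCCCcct
Nfkb2, chr19:46304668-46304736, plus strand: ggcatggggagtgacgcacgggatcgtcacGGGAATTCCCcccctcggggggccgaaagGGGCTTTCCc
The Icam1 stretch holds 2 motifs, whose first bases lie 153 and 84 bases before the start. The motif nearest the start begins 29 bases before it in Nfkbia and 12 at the first Tnfaip3 start, where the 2 upstream motifs are separated by 3 bases. The second Tnfaip3 start, not shown, has a match that begins 89 bases before it. In Nfkb2 the matches on the 2 strands overlap at 39 and 38 bases before the start, and another begins at 10. A match describes these letters and is not a measured binding site.

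Smad4 itself was read first as a check of the labels. It stood at 122, 159, 135 and 118 CPM (counts per 1000000, after TMM scaling of the library totals) in the WT water libraries, at 170, 182 and 174 after DSS in WT, and at 43.9, 40.4 and 42.8 in Smad4 KO after DSS. On water the libraries labelled Smad4 KO had 158, 37.0, 46.8 and 35.1 CPM, so that replicate 1 of the libraries labelled Smad4 KO on water was at the WT level. The paper's figure legends give 4 replicates for WT on water and 3 for Smad4 KO on water. They do not name a library that was left out, so the main fits here may use another set of samples. Replicate 1 was kept under its label, and the comparisons of the members that rest on it were also made without it. Total counts ran from 12882827 to 26087231. Mitochondrial genes held 30.6% and 32.8% of the counts in WT water replicates 3 and 4 and 21.4% in Smad4 KO water replicate 4, and between 4.05% and 8.23% in the other 11 libraries. The library names carry letter prefixes of unstated meaning. All Smad4 KO DSS libraries share a prefix that no Smad4 KO water library has, so that prefix and DSS cannot be told apart in that genotype.

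The tissue label was checked with marker lists. The 11 epithelial markers summed to between 20418 and 32024 CPM in every library, and Epcam alone to between 1219 and 2251. The 17 leukocyte markers summed to between 163 and 297 CPM, most of it from Cd14 and Ly6g, while Ptprc, which defines leukocytes, was between 1.06 and 9.68. The 6 fibroblast markers summed to at most 4.06 CPM in WT and to between 2.98 and 24.8 in Smad4 KO, with Lum at 0 or 1 read throughout. The 5 endothelial markers summed to between 4.14 and 10.6 CPM, mostly Vwf, with Cdh5 and Kdr at 5 reads or fewer. In bulk samples a smaller share of cells that express a gene and less RNA per cell cannot be told apart.

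Per kilobase of exon, the members covered a wide range of levels. Il18 was the most abundant, with 160 ± 44.4 CPM per kb (SD, n = 14), followed by Nfkbia with 47.7 ± 9.33 and Nfkbiz with 26.9 ± 4.49. The 14 libraries of Il18 (98.8 to 254) did not overlap those of Nfkbia (33.7 to 61.4), and the lowest Nfkbia library was below the highest Nfkbiz library (34.7). Nfkb1 (14.9 ± 2.23), Birc3 (14.7 ± 2.36) and Nfkb2 (14.2 ± 2.79) stood together and differed by less than the spread of each. Relb (10.9 ± 2.31) and Tnfaip3 (7.26 ± 1.78) came next, with overlapping ranges of 6.37 to 14.4 and 2.97 to 9.66 CPM per kb. Icam1 was lower (2.30 ± 1.24), its highest library at 4.63 above the lowest of Tnfaip3, and Tnfaip2 was near the limit of detection (0.326 ± 0.279). The cytokine and both IkB genes were thus more abundant per length than the subunits, and the adhesion molecule was a minor transcript.

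**Figure D1:**
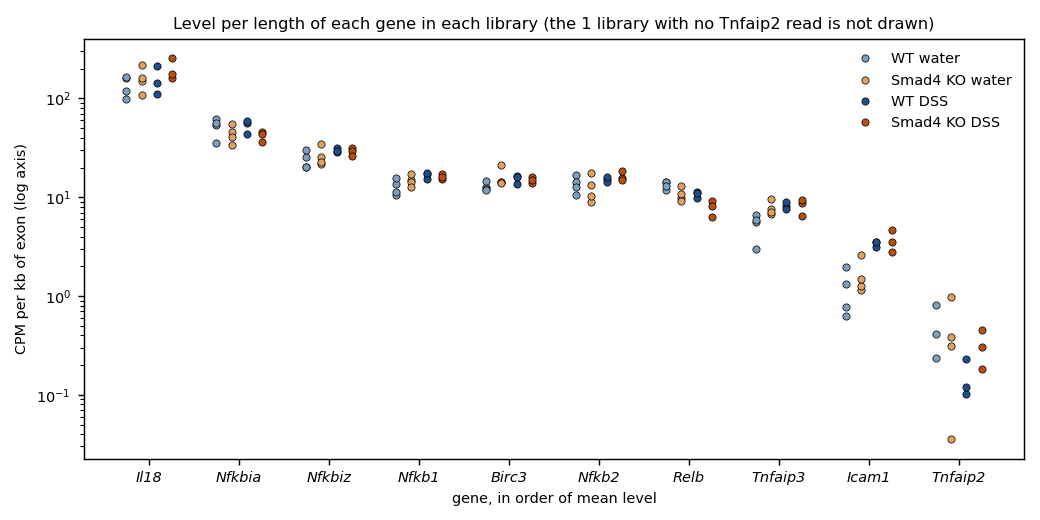
Level of each of the 10 genes in every library, as CPM per kb of exon on a log axis, with genes ordered by mean level and points coloured by group. Il18 has every library above all libraries of the other genes, and Tnfaip2, with 1 library at 0 that is not drawn, spans the widest range on the log axis.

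Among the subunits, Nfkb1 had 65.0, 75.3, 50.6 and 54.5 CPM in the WT water libraries and 82.8, 73.3 and 85.2 after DSS. In Smad4 KO it had 72.0, 67.9, 82.2 and 60.8 CPM on water and 73.3, 82.4 and 76.6 after DSS. The lowest values were those of the 3 libraries rich in mitochondrial counts, and the groups overlapped. Nfkb2 ranged from 35.0 to 55.6 CPM in WT on water, from 29.7 to 58.1 in Smad4 KO on water, from 47.1 to 52.2 in WT after DSS and from 49.3 to 60.5 in Smad4 KO after DSS. Its libraries on water were the more scattered in both genotypes.

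Relb ran in the other direction. It had 55.5, 56.1, 45.8 and 50.7 CPM in WT on water and 44.1, 38.4 and 43.0 in WT after DSS, with no overlap. In Smad4 KO it had 38.4, 42.4, 35.4 and 50.3 CPM on water and 24.8, 35.7 and 31.7 after DSS. The 3 Smad4 KO DSS libraries were below all WT libraries of either treatment, and 1 of them (35.7) was just above the lowest Smad4 KO water library (35.4).

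Among the inhibitors, Nfkbia had 85.2, 96.9, 88.2 and 55.6 CPM in WT on water and 88.8, 68.8 and 94.2 after DSS. In Smad4 KO it had 72.9, 53.1, 64.4 and 86.7 CPM on water and 57.5, 72.6 and 68.8 after DSS. WT water replicate 4 was low and WT DSS replicate 2 met the range of Smad4 KO, so that the groups overlapped. Nfkbiz was the member with the highest mean CPM, at 102 to 150 in WT on water, 108 to 174 in Smad4 KO on water, 145 to 156 in WT after DSS and 130 to 158 in Smad4 KO after DSS. The ubiquitin-editing enzyme Tnfaip3 had 41.0, 47.6, 42.1 and 21.5 CPM in WT on water, below all other groups but for the lowest Smad4 KO DSS library. It had 48.5, 54.4, 69.8 and 51.4 CPM in Smad4 KO on water, 59.2, 55.0 and 64.6 in WT after DSS, and 63.8, 68.4 and 47.1 in Smad4 KO after DSS. Birc3 was between 59.6 and 72.9 CPM in WT on water, 68.5 and 82.0 in WT after DSS, and 69.6 and 79.7 in Smad4 KO after DSS. In Smad4 KO on water it had 71.0, 71.5 and 68.9 CPM in 3 libraries and 107 in replicate 3, the highest value of the gene.

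Icam1 was the only member whose 6 DSS libraries were all above all 8 water libraries. It had 4.96, 3.33, 1.95 and 1.60 CPM in WT on water and 2.95, 3.22, 6.58 and 3.80 in Smad4 KO on water. After DSS it had 8.92, 7.91 and 8.88 CPM in WT and 7.17, 11.8 and 8.93 in Smad4 KO. Among all 15127 tested genes, 62 (0.41%) had every DSS library above every water library. Il18 ranged from 69.4 to 116 CPM in WT on water, 76.2 to 152 in Smad4 KO on water, 78.7 to 148 in WT after DSS and 114 to 178 in Smad4 KO after DSS, with each group overlapping the next. Tnfaip2 had 110, 46, 0 and 11 reads in WT on water, 4, 26, 47 and 91 in Smad4 KO on water, 11, 13 and 27 in WT after DSS, and 29, 46 and 18 in Smad4 KO after DSS. Its water libraries spanned more than its DSS libraries in both genotypes, and it is the member least well measured.

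**Figure D2:**
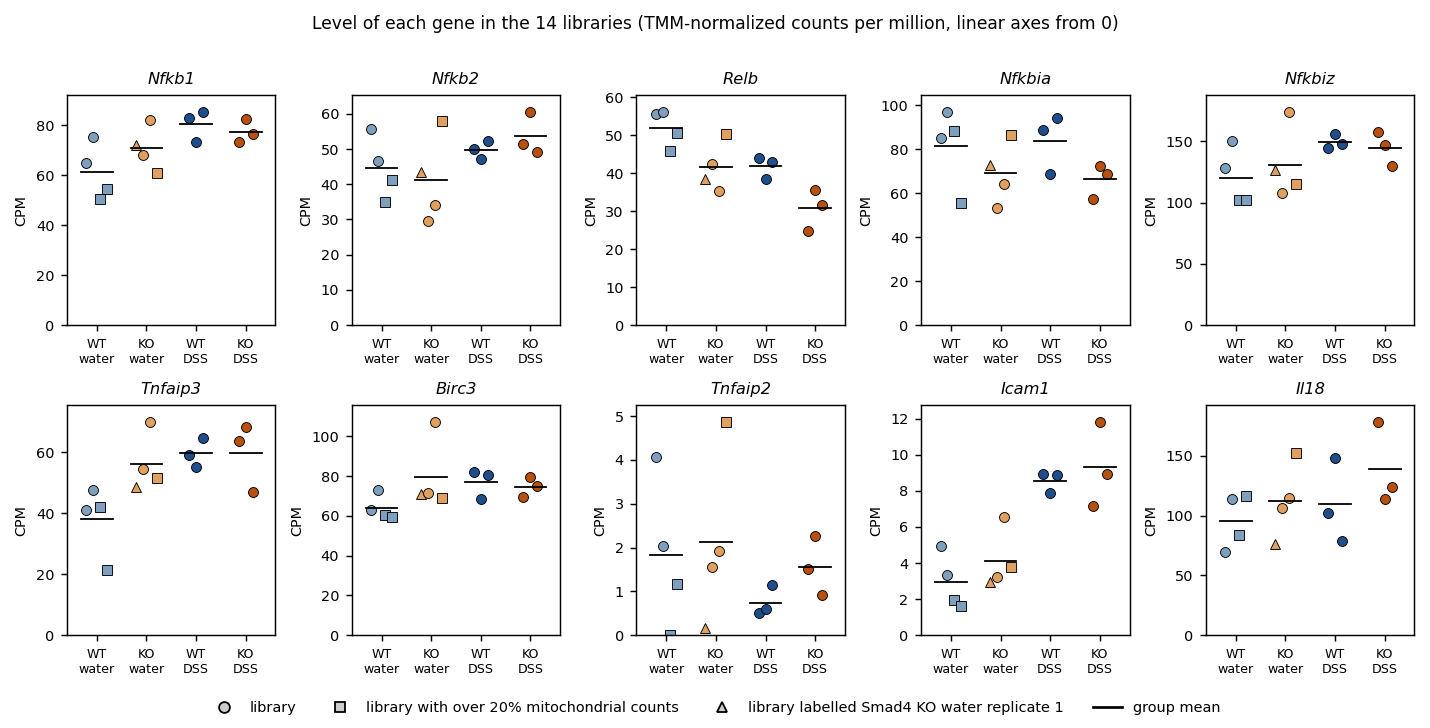
CPM of each gene in the 14 libraries, on linear axes from 0, with the group mean as a line. Icam1 separates the DSS libraries (7.17 to 11.8) from the water libraries (1.60 to 6.58), and Relb is lowest in Smad4 KO after DSS. Squares are the 3 libraries with over 20% mitochondrial counts and the triangle is replicate 1 of Smad4 KO on water.

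The first comparison asked what 3 d of DSS did in WT epithelium. Icam1 was 2.80-fold higher after DSS (log2 fold change 1.49, SE 0.35, 95% interval 0.70 to 2.28), and Tnfaip3 was 1.56-fold higher (0.64, SE 0.23, interval 0.14 to 1.15), each with no overlap of the groups. Nfkb1 was 1.31-fold higher with overlap (0.39, SE 0.15), and Relb had 0.804 of its water level (-0.32, SE 0.13) without overlap. Their adjusted p-values in edgeR's quasi-likelihood test were 0.088, 0.14, 0.17 and 0.17, so no member passed the threshold of 0.05. The other 6 had log2 differences of -1.33 (Tnfaip2, SE 0.92), 0.04 (Nfkbia, SE 0.19), 0.15 (Nfkb2), 0.20 (Il18), 0.27 (Birc3) and 0.31 (Nfkbiz). The interval for Nfkbia, -0.39 to 0.47, leaves room for a difference of about the size seen in Nfkb1.

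In this comparison edgeR called 0% of the 15127 genes, while 24.2% (3662) had an unadjusted p below 0.05, as did 4 of the 10 members. The share of genes whose groups did not overlap was 24.4%, and 3 of 10 members were among them. The median log2 difference was 0.23 for the members and -0.01 for all tested genes, with 8 of 10 members and 48.6% of all genes above 0. DESeq2, the tool of the study, called 1777 genes and among the members Icam1 alone, with an adjusted p of 0.003. Icam1 also passed in edgeR when genes of 1 count or more in 1 library were kept (adjusted p = 0.038), and over 16 alternatives its adjusted p ran from 0.003 to 0.31. Without the libraries rich in mitochondrial counts, a choice made after seeing the data, its log2 difference was 1.05 (edgeR adjusted p = 0.089) and that of Tnfaip3 0.43 (0.13). Within the libraries of name prefix D it was 1.02 for Icam1 (edgeR adjusted p = 0.24) and 0.37 for Tnfaip3 (0.30).

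The same question was asked of Smad4 KO epithelium, where Icam1 again had the largest difference. It was 2.25-fold higher (log2 fold change 1.17, SE 0.32, interval 0.46 to 1.88) without overlap, and Relb had 0.740 of its water level (-0.44, SE 0.19, interval -0.85 to -0.02). Neither passed (edgeR adjusted p = 0.61 and 0.76). Nfkb2 (0.38, SE 0.23), Il18 (0.31, SE 0.24), Nfkbiz (0.15), Nfkb1 (0.14), Tnfaip3 (0.10), Nfkbia (-0.06), Birc3 (-0.08) and Tnfaip2 (-0.44, SE 0.80) all had intervals that include 0. The intervals of Tnfaip3 (-0.30 to 0.49) and Birc3 (-0.47 to 0.30) bound their differences on both sides. No member was called, against 0.00661% of all genes (1 of 15127), and 2 of 10 members had an unadjusted p below 0.05, against 6.37% (964 genes). The groups did not overlap for 1 of 10 members and 8.88% of genes, and 6 of 10 members were above 0, against 47.3% of genes. DESeq2 called 71 genes and no member. The gene called by edgeR was Rpl34, which encodes a ribosomal protein and has near-identical copies in the genome. Whether its reads were split among them was not tested. Rpl34 was named after its values were seen.

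With replicate 1 of the libraries labelled Smad4 KO on water left out, Icam1 differed by 1.03 on the log2 scale (SE 0.33, edgeR adjusted p = 0.73) and Relb by -0.47 (0.77). The Icam1 mean on water was then 4.53 ± 1.80 CPM (SD, n = 3) in place of 4.14 ± 1.67 (SD, n = 4). Without Smad4 KO water replicate 4, which is rich in mitochondrial counts, the Icam1 difference was 1.12 (edgeR adjusted p = 0.28).

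Whether the response to DSS differed between the genotypes was tested as an interaction over all 14 libraries. For Icam1 the response in Smad4 KO minus that in WT was -0.33 on the log2 scale (SE 0.51, interval -1.40 to 0.75, edgeR adjusted p = 0.87). The member farthest from 0 relative to its error was Tnfaip3, at -0.55 (SE 0.31, interval -1.21 to 0.11, edgeR adjusted p = 0.67), followed by Birc3 at -0.36 (SE 0.22, adjusted p = 0.69) and Nfkb1 at -0.26 (SE 0.21, adjusted p = 0.74). Relb (-0.12), Nfkbia (-0.10), Nfkbiz (-0.17), Il18 (0.11), Nfkb2 (0.22) and Tnfaip2 (0.89, SE 1.31) had adjusted p-values from 0.84 to 0.94. No member and 0.00661% of genes (Rpl34, named after its values were seen) were called, and no member had an unadjusted p below 0.05, against 7.5% of genes. The difference was above 0 in 3 of 10 members and in 49.4% of genes. DESeq2 called 8 genes. The interval of Icam1 includes differences from -1.40 to 0.75, so the data do not show that the responses were alike. With replicate 1 of Smad4 KO on water left out, the difference was -0.46 for Icam1, -0.61 for Tnfaip3, -0.41 for Birc3, -0.25 for Nfkb1, -0.16 for Relb, -0.08 for Nfkbia, -0.18 for Nfkbiz, 0.25 for Nfkb2, 0.50 for Tnfaip2 and -0.04 for Il18, with edgeR adjusted p-values from 0.62 to 0.98.

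**Figure D3:**
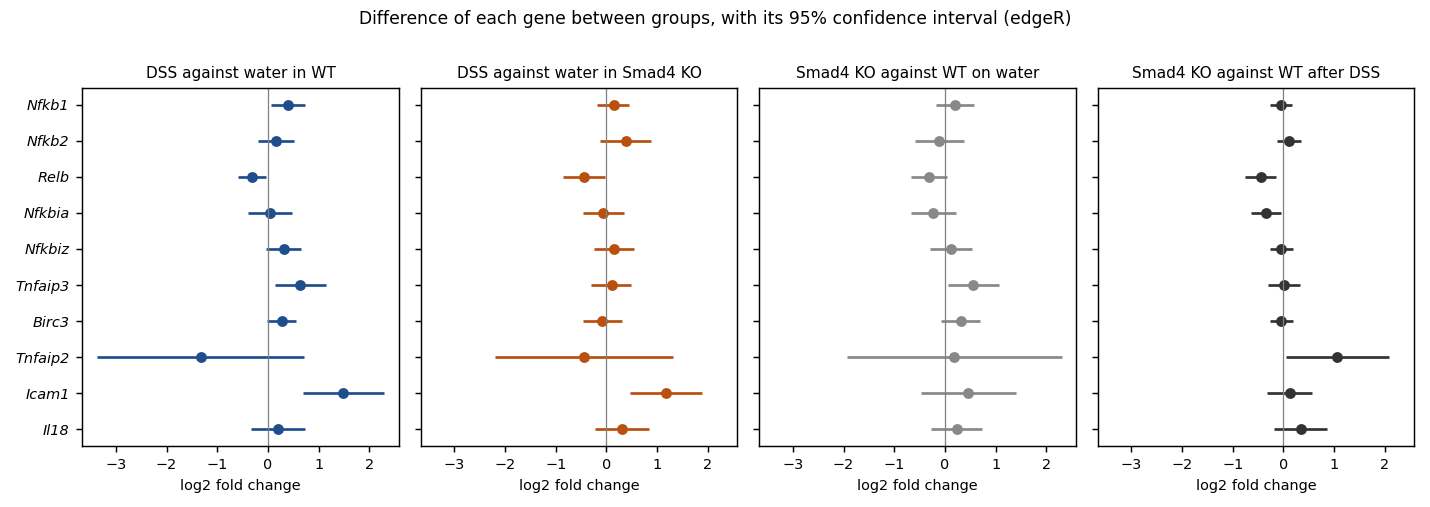
Log2 fold change of each gene with its 95% interval in 4 comparisons, from edgeR. Icam1 lies to the right of 0 in both DSS comparisons (1.49 in WT and 1.17 in Smad4 KO), Relb lies to the left of 0 in all 4, and no gene passed an adjusted p of 0.05.

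After DSS, Smad4 KO was compared with WT, the contrast of the injured epithelia. Relb stood at 0.737 of the WT level (30.8 ± 5.54 against 41.8 ± 3.01 CPM, SD, n = 3 each; log2 fold change -0.44, SE 0.14, interval -0.75 to -0.14) with no overlap. Nfkbia stood at 0.792 (66.3 ± 7.86 against 83.9 ± 13.4 CPM; -0.34, SE 0.13), with overlap. Tnfaip2 was 2.09-fold higher (1.57 against 0.745 CPM; 1.06, SE 0.46). These 3 members had unadjusted p below 0.05, and edgeR's adjusted p was 0.19, 0.28 and 0.31. Relb is the partner of the noncanonical subunit p52, whose gene Nfkb2 differed by 0.11 (SE 0.10, interval -0.12 to 0.35).

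The other 7 members had no unadjusted p below 0.05 after DSS. Nfkb1 (-0.05, interval -0.26 to 0.16), Nfkbiz (-0.04, -0.27 to 0.18), Tnfaip3 (0.01, -0.30 to 0.32) and Birc3 (-0.04, -0.26 to 0.19) had narrow intervals around 0. Icam1 differed by 0.12 (interval -0.32 to 0.56) and Il18 by 0.34 (139 against 110 CPM, SE 0.23, interval -0.18 to 0.86), which leaves room for a difference larger than that of Nfkbia. No member was called by edgeR or DESeq2, against 0.747% of all genes by edgeR (113, of which 50 were higher and 63 lower) and 499 genes by DESeq2. At an unadjusted p below 0.05 edgeR counted 3 of 10 members and 15.4% of genes, and 1 of 10 members and 21.7% of genes had groups that did not overlap. The median log2 difference was -0.02 for the members and 0.00 for all genes, with 5 of 10 members and 50.4% of genes above 0. Without Smad4 KO DSS replicate 1, the lowest library of Relb, its difference was -0.30 (edgeR adjusted p = 0.34), and over 14 alternatives its adjusted p ran from 0.09 to 0.90. Smad4 itself passed in this fit, at 0.242 of the WT level (edgeR adjusted p = 1.5e-05).

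On water, Smad4 KO was compared with WT before injury. Tnfaip3 was 1.47-fold higher in Smad4 KO (56.0 ± 9.48 against 38.0 ± 11.4 CPM, SD, n = 4 each; log2 fold change 0.56, SE 0.23, interval 0.05 to 1.06), with no overlap, and its edgeR adjusted p was 0.21. Relb stood at 0.799 of the WT level (-0.32, SE 0.16, adjusted p = 0.28) with overlap, and Birc3 was at 1.24-fold (0.31, SE 0.17, adjusted p = 0.33). Icam1 (0.46, SE 0.43), Il18 (0.23), Nfkb1 (0.20), Tnfaip2 (0.18, SE 0.97), Nfkbiz (0.12), Nfkb2 (-0.11) and Nfkbia (-0.24) had adjusted p-values from 0.52 to 0.93 in edgeR. No member was called, against 0.00661% of genes (Rpl34 again, named after its values were seen), and 1 of 10 members had an unadjusted p below 0.05, against 20.4% of genes (3083). The groups did not overlap for 1 of 10 members and 10.4% of genes, and 7 of 10 members were above 0, against 49.4% of genes. DESeq2 called 768 genes and no member. Smad4 itself did not pass with the library labelled replicate 1 (edgeR adjusted p = 0.23) and passed without it (0.0082).

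Without that library Tnfaip3 differed by 0.62 (SE 0.26, edgeR adjusted p = 0.24), Relb by -0.28 (0.43) and Birc3 by 0.37 (0.34). Without the 3 libraries rich in mitochondrial counts the differences were 0.38 for Tnfaip3 (edgeR adjusted p = 0.29), -0.52 for Relb (0.13) and -0.52 for Nfkbia (0.15), and that of Icam1 was 0.04 (0.97). WT water replicate 4 was the lowest library of Tnfaip3 (21.5 CPM), and without it the difference was 0.36 (edgeR adjusted p = 0.40). The 4 comparisons share groups, so that Relb, which was below 0 in each of them, was not observed 4 independent times.

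Tnfaip2 moved by over 1.5 times in fold with single libraries. Without WT water replicate 1, its library of 110 reads, the log2 difference was -0.56 for DSS in WT, 0.95 for genotype on water and 0.13 for the difference of the responses. Without Smad4 KO water replicate 4, its library of 91 reads, it was 0.37 for DSS in Smad4 KO, -0.62 for genotype on water and 1.68 for the difference of the responses. None of these passed in edgeR (adjusted p from 0.51 to 0.98).

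The rest of the pathway was read from lists of 119 genes ordered by role, of which 105 were tested. Among the subunits, Rela, the main activating partner of p50, had between 51.9 and 55.4 CPM in every group mean, and its log2 difference was at most 0.08 in size in the 4 comparisons (-0.08, -0.02, -0.02 and -0.07). Rel, the lymphoid subunit c-Rel, was scarce, with group means of 0.855 ± 0.518 CPM (SD) in WT on water and 2.51 ± 0.552 in WT after DSS. In Smad4 KO, Rel had 2.51 ± 3.06 CPM on water, where the SD exceeded the mean, and 4.30 ± 1.19 after DSS. Its log2 difference was 1.63 for DSS in WT (edgeR adjusted p = 0.13) and 0.78 between the genotypes after DSS (0.25). The other IkB family genes did not pass in any comparison. Bcl3, an IkB protein that binds p50 and p52, had 96.8 CPM in WT and 71.1 in Smad4 KO on water (-0.44, edgeR adjusted p = 0.29). With replicate 1 of Smad4 KO on water left out, the Smad4 KO water means were 71.3 CPM for Bcl3 (-0.44, edgeR adjusted p = 0.38) and 2.71 ± 3.71 (SD) for Rel. Rela and Rel form the whole list of other subunits, and Bcl3 was named after its values were seen.

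After DSS, 4 of the 105 genes passed between the genotypes, 1 higher and 3 lower, against 0.331% and 0.416% of all genes. Tradd, an adaptor of the TNF receptor, had 79.1, 86.3 and 86.3 CPM in Smad4 KO and 112, 119 and 116 in WT. It fell by 0.46 on the log2 scale (edgeR adjusted p = 0.049). Tnip1, which works with A20 to restrain NF-kB, had 62.9, 71.6 and 66.7 CPM against 96.8, 94.5 and 91.5, and fell by 0.49 (edgeR adjusted p = 0.046). Il17rc, a subunit of the IL-17 receptor, had 128, 128 and 135 CPM against 182, 221 and 197, and fell by 0.62 (edgeR adjusted p = 0.033). Gadd45b, a stress-induced target gene, rose by 0.83 (edgeR adjusted p = 0.043), with 31.9, 26.1 and 22.5 CPM against 15.6, 15.6 and 14.2. In each of these genes the 3 Smad4 KO libraries stood apart from the 3 WT libraries. On water the log2 differences between the genotypes had the same signs, with replicate 1 of Smad4 KO kept. They were -0.36 for Tradd, -0.76 for Tnip1, -0.77 for Il17rc and 0.24 for Gadd45b (edgeR adjusted p = 0.39, 0.16, 0.22 and 0.71). Tnip1 alone had no overlap of the groups there.

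Those calls sat near the threshold. Of 14 alternatives, Tradd, Tnip1 and Gadd45b kept theirs in 3 and Il17rc in 4, with edgeR or DESeq2 adjusted p-values from 1.1e-05 to 1.00, while the log2 values kept their signs (-0.49 to -0.42 for Tradd, -0.54 to -0.44 for Tnip1, -0.68 to -0.54 for Il17rc and 0.69 to 0.94 for Gadd45b). The alternatives are not all distinct, since the fit within prefix D and that without WT DSS replicate 3 use the same libraries. In the same comparison 3 of the 4 tested fibroblast markers were called higher in Smad4 KO. All 11 epithelial markers were below 0 on the log2 scale, from -0.02 for Vil1 to -0.85 for Krt20, a keratin of mature surface cells and the 1 of them that was called (edgeR adjusted p = 0.032). Their summed level was 24991 to 25497 CPM in Smad4 KO and 25884 to 28927 in WT. The part of these markers in the differences between the genotypes after DSS, those of the members included, was not tested. No gene of the lists passed in the other comparisons. At an unadjusted p below 0.05, 25 of the 105 were higher and 6 lower after DSS in WT (all genes: 11.5% and 12.7%), and the corresponding counts were 6 and 4 for DSS in Smad4 KO (3.05% and 3.32%), 14 and 10 for genotype on water (10.8% and 9.59%), and 6 and 13 for genotype after DSS (7.07% and 8.34%). For the difference of the responses, 1 was higher and 13 were lower, against 7.5% of all genes in either direction. With replicate 1 of Smad4 KO on water left out, the counts were 3 and 4 for DSS in Smad4 KO (3.25% and 3.21%) and 15 and 6 for genotype on water (9.4% and 8.62%). For the difference of the responses they were then 2 and 14 (4.16% and 4.26%). None was called, and the counts without that replicate were added after seeing the data. Of the 23 other target genes tested, which include chemokines and antimicrobial proteins, 6 were higher and none lower at that level after DSS in WT, with a list median of 0.25. After DSS in Smad4 KO, 2 of them were higher and 2 lower, with a median of 0.21. The lists were not counted without the libraries rich in mitochondrial counts.

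**Figure D4:**
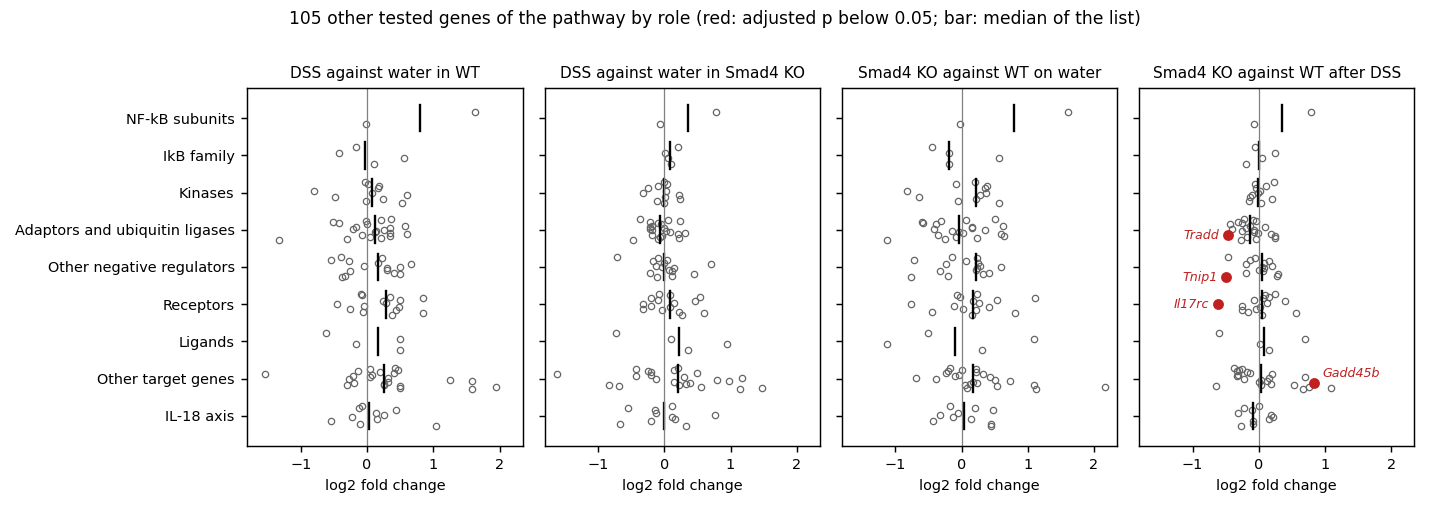
Log2 fold change of the 105 other tested genes of the pathway in 4 comparisons, by role, with the list median as a bar and genes of adjusted p below 0.05 in edgeR in red. The red points, Tradd, Tnip1, Il17rc and Gadd45b, all lie in the comparison of Smad4 KO with WT after DSS. On water these genes lie on the same side of 0 without passing.

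The receptors, processing factors and inhibitor of IL-18 were described as an axis of 11 genes, of which 10 were tested and none called. The secreted inhibitor Il18bp had 26.6 ± 9.19 CPM in WT after DSS and 12.9 ± 0.835 on water (log2 fold change 1.04, edgeR adjusted p = 0.088). In Smad4 KO, Il18bp had 22 ± 4.98 CPM after DSS and 17.6 ± 4.89 on water (0.33, edgeR adjusted p = 0.86). The receptor genes Il18r1 and Il18rap, by contrast, were under 1 CPM in each group mean of WT, and Il18 itself differed by 0.20. Casp1, which cleaves the precursor, had 185 CPM after DSS and 167 on water in WT (0.15, edgeR adjusted p = 0.43). At an unadjusted p below 0.05 in edgeR, 2 of the 10 tested genes were higher and none lower after DSS in WT (all genes: 11.5% and 12.7%). They were Il18bp and Nlrc4 (41.4 against 30.6 CPM, 0.44, adjusted p = 0.11). After DSS in Smad4 KO, with replicate 1 on water kept, 1 gene of the axis was higher and 1 lower (all genes: 3.05% and 3.32%). These were Pycard (339 against 199 CPM, 0.77, edgeR adjusted p = 0.56) and Aim2 (56.6 against 82.8 CPM, -0.55, adjusted p = 0.76). Between the genotypes, 1 was lower after DSS (Nlrp6, -0.31, edgeR adjusted p = 0.25), against 8.34% of all genes. On water 1 was higher (Nlrc4, 0.48, edgeR adjusted p = 0.19), against 10.8%. For the difference of the responses 1 was lower (Nlrc4, -0.59, edgeR adjusted p = 0.64), against 7.5% in either direction. The genes of the axis given here were named after their values were seen.

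The genes whose profile was most like that of a member, by Pearson's r of log2 CPM across the 14 libraries, are given as a description, since the libraries share groups, treatment and mitochondrial share. For Icam1 they were Gm4951 (r = 0.94), Calr and Gm15347 (both 0.92). For Nfkb1 they were Uba1, Tm9sf1 (both 0.96) and Cpt1a (0.95), for Nfkb2 Rcc1 and Keap1 (both 0.89), and for Relb Fmo5 (0.94), AA986860 (0.90) and Grb7 (0.89). For Nfkbia they were Artn (0.89), Igsf9 (0.86) and Fam101b (0.85), for Nfkbiz Slc28a3 (0.97), Snord91a and Zfp385b (both 0.93), and for Tnfaip3 Ept1, Ctnnd1 and Tank (all 0.95). For Birc3 they were Thsd4 (0.93), Jhdm1d and Pofut1 (both 0.92), for Il18 Gm11428 (0.90), Ms4a8a (0.84) and Megf11 (0.82), and for Tnfaip2 Tmem178 (0.87), Tmem163 (0.86) and Spn (0.85). Of the genes named, Gm15347, Snord91a, Artn and Tmem178 were scarce, with mean levels of 0.209, 0.292, 0.329 and 0.835 CPM. Among the members themselves, Nfkb1, Nfkbiz, Tnfaip3, Birc3 and Icam1 were positively correlated with each other, with r from 0.60 between Birc3 and Icam1 to 0.84 between Nfkb1 and both Nfkbiz and Icam1. Relb was negatively correlated with each of these 5, from -0.35 with Birc3 to -0.52 with Icam1.

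Markers of other cells were set beside Icam1, which leukocytes and endothelial cells also express. The 17 leukocyte markers summed to 163 to 283 CPM in WT on water, 261 to 290 in WT after DSS, 174 to 297 in Smad4 KO on water and 233 to 279 in Smad4 KO after DSS. Of the 15 leukocyte markers tested, 8 were above 0 on the log2 scale after DSS in WT and 6 in Smad4 KO, and none was called. Ptprc was at 7.22, 4.48, 1.06 and 3.32 CPM in WT on water and at 4.96, 8.64 and 9.68 after DSS, so that it was lowest in the 2 WT water libraries where Icam1 was lowest, which are also those rich in mitochondrial counts. In Smad4 KO, Ptprc was at 5.76, 5.48, 6.91 and 9.3 CPM on water and at 6.17, 6.94 and 7 after DSS. Its highest Smad4 KO water library was replicate 4, whereas that of Icam1 was replicate 3. The endothelial sum was 4.88 to 10.6 CPM in WT on water and 4.83 to 6.44 after DSS, with Cdh5 at 0 reads in all 4 WT water libraries. The part of leukocyte transcripts in the Icam1 difference was not tested.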

How the data were processed

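The authors aligned paired-end reads to mm9 with HISAT2 and assigned them to genes with featureCounts. They deposited the raw counts of 14 libraries without normalization. Per the labels, libraries were placed in 4 groups. Symbols, positions and exon lengths came from GENCODE M1 (37310 of 37680 identifiers matched), and 14001 genes had no count. The 15127 genes that reached 10 counts in 3 or more libraries entered edgeR 4.0.16 (R 4.3.3), whose quasi-likelihood test was run after TMM scaling on the 2 groups compared, since the study tested pairwise, and on all 14 libraries for the interaction. P-values were adjusted by Benjamini-Hochberg over all tested genes, with a threshold of 0.05. CPM were TMM-scaled, and the log2 CPM used for profiles had a prior count of 2. Intervals are 95%. Alternatives were DESeq2 1.42.0, a wider filter, a model of all libraries, blocks for replicate number and name prefix, and libraries left out. The fit was run on counts simulated for the genotypes after DSS and for DSS in WT. Each gene had a single mean per group and a capped spread, so libraries that stand apart from their group were not represented. All 10 members were named in every comparison, and of the pathway lists up to 5 called genes in each direction by size of change. For each member the 3 genes with the highest correlation were named, except 1 gene that is not reported here. The older symbols Emr1 and Fam105b were used for Adgre1 and Otulin. Members and lists were chosen with earlier results of these data known. Precision is limited by total counts of 12882827 to 26087231 per library and by 3 or 4 libraries per group. Promoter sequences came from RefSeq tables on GRCm38.p6.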

Additional observations from a re-analysis of the deposited data

Results flagged for a closer look

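In Smad4 KO on water, Birc3 stood at 107 CPM in replicate 3, far above the other 3 libraries of that group (71.0, 71.5 and 68.9 CPM), and this gap relative to the range of the group set it apart. Each member was looked at in the 2 groups of 4 libraries, which makes 20 looks, and about 1 in 20 such groups would be set apart by chance. In the same library Icam1 (6.58 CPM), Tnfaip3 (69.8 CPM) and Nfkbiz (174 CPM) were also at the top of their group.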

How the results depend on the processing

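No member passed the threshold in any alternative except Icam1 for DSS in WT, with DESeq2 (adjusted p = 0.003) and with genes of at least 1 count in 1 library kept (edgeR adjusted p = 0.038), where 1 member was called in place of 0. DESeq2 gave Tnfaip2 on water no adjusted p. Of 800 alternative values of the members' log2 fold changes, 748 kept their direction and side of the threshold and 50 turned in direction, none of them called. Library numbers and depth limit small differences, and the causes were not tested.

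The counts of called genes moved widely. Smad4 KO against WT after DSS called 113 genes, but 2 in a model of all 14 libraries, 8 in that model without Smad4 KO water replicate 1, 499 with DESeq2, 345 with the wider filter, and 42 both with the name prefix as a block and within prefix D. Leaving out single libraries gave 27 to 96, with 54 without WT DSS replicate 2, 42 without WT DSS replicate 3, and 56, 27 and 31 without Smad4 KO DSS replicates 1, 2 and 3. The fit without WT DSS replicate 3 is the same as that within prefix D. On water the count of 1 became 1276 in the model of all libraries, 1151 without Smad4 KO water replicate 1 in that model, 768 with DESeq2, 55 with the wider filter, 296 with the prefix block and 104 without the libraries rich in mitochondrial counts, a choice made after seeing the data. Single libraries left out gave 1 to 1740, with 13 without Smad4 KO water replicate 1 and 1740 without replicate 4. For DSS in WT the count of 0 became 1777 with DESeq2, 457 with the wider filter, 2 with the prefix block, 9 within prefix D and 1 without the libraries rich in mitochondrial counts, and leaving out single libraries gave 0 to 418 (418 without WT water replicate 2 and 25 without replicate 4). For DSS in Smad4 KO the count of 1 became 10 in the model of all libraries, 5 in that model without replicate 1, 71 with DESeq2 and 19 with the wider filter, and 1 to 3 with single libraries left out (3 without Smad4 KO water replicate 3 and 3 without Smad4 KO DSS replicate 1). For the difference of the responses the count of 1 became 8 with DESeq2, 2 with the wider filter and 30 without the libraries rich in mitochondrial counts, and 1 to 5 with single libraries left out (2 without Smad4 KO water replicate 2 and 5 without replicate 4). The prefix block could not be fitted for DSS in Smad4 KO, where prefix and treatment coincide.

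Replicate numbers did not pair the libraries. The correlations of same-numbered deviations ran from -0.081 to 0.0561, except 0.348 for replicate 4 on water, where both libraries are rich in mitochondrial counts. With the replicate block the counts were 57 for Smad4 KO against WT after DSS, 473 for that contrast on water, 54 for DSS in WT and 15 for DSS in Smad4 KO. In those fits Tnfaip3 was at -0.0054 between the genotypes after DSS. Nfkbia was at -0.11 for DSS in WT and 0.08 in Smad4 KO, and Tnfaip2 at 0.65 for DSS in Smad4 KO.

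None of the values that turned in direction was called. Between the genotypes after DSS, Tnfaip3 was at -0.0035 with the wider filter. Leaving out single libraries gave -0.10 to 0.15 for Tnfaip3, -0.11 to 0.01 for Birc3, -0.09 to 0.28 for Icam1 and -0.11 to 0.03 for Nfkbiz. On water, Nfkb2 was at 0.25 with the prefix block and -0.32 to 0.01 with single libraries left out, Nfkbiz was at -0.03 without the libraries rich in mitochondrial counts and -0.05 to 0.25 with single libraries left out, and Tnfaip2 was at -1.32 and -0.62 to 0.95. For DSS in WT, Nfkb2 was at -0.07 with the prefix block and within prefix D and at -0.04 without the libraries rich in mitochondrial counts. Nfkbia was at -0.21, -0.21 and -0.12 in the same fits and -0.10 to 0.17 with single libraries left out, and Il18 was at -0.08 to 0.39. For DSS in Smad4 KO, the fit without the library rich in mitochondrial counts gave 0.07 for Nfkbia and 0.37 for Tnfaip2, and single libraries left out gave -0.17 to 0.07 for Nfkbia, -0.83 to 0.37 for Tnfaip2, -0.0024 to 0.24 for Tnfaip3 and -0.15 to 0.08 for Birc3. For the difference of the responses, the prefix block gave -0.10 for Nfkb2, -1.22 for Tnfaip2 and -0.09 for Il18, and the model without Smad4 KO water replicate 1 gave -0.04 for Il18. Without the libraries rich in mitochondrial counts it was 0.08 for Relb, 0.18 for Nfkbia and 0.07 for Icam1. Single libraries left out gave -0.24 to 0.01 for Relb, -0.23 to 0.05 for Nfkbia, -0.30 to 0.0012 for Nfkbiz and -0.11 to 0.39 for Il18.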
